A study of Homo sapiens with 8 samples.

Results

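Activins are secreted dimers of beta subunits, and the 10 genes described here encode the activin beta subunits (INHBA, INHBB, INHBC and INHBE), the secreted antagonists follistatin (FST) and follistatin-like 3 (FSTL3), the type I receptors ACVR1 and ACVR1B and the type II receptors ACVR2A and ACVR2B. They were taken by symbol from a count table of 15745 genes and were selected on the fold changes and adjusted p-values of this same comparison, with INHBE set against INHBB, so their own differences are given as a description without p-values. RNA-seq was performed on 8 libraries of wildtype HuH7 cells, a hepatoma-derived human line used as a model of hepatocytes. All cells underwent 6 h of culture without glucose under 1% oxygen and were then returned to normoxia for 6 h (OGD/R), with DMSO in the I/R+DMSO group (n = 4) and with the ginsenoside Rk2 at 20 µM, dissolved in DMSO, in the I/R+Rk2 group (n = 4). Cells without OGD/R are not compared here, and the sources used here do not tie the 4 libraries of a group to separate cultures, so the spread between them may be technical.

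An activin dimer binds a type II receptor, which phosphorylates a type I receptor, which in turn phosphorylates the transcription factors SMAD2 and SMAD3. Inhibins pair a beta subunit with the alpha subunit INHA and oppose activins. INHBC and INHBE are known as the subunits of the liver, and INHBA and INHBB are made in many tissues. FST and FSTL3 wrap around activin dimers and keep them from their receptors. Transcript levels of the subunits do not show which dimers form or are secreted.

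Total counts per library ranged from 18428485 to 21447045 for I/R+DMSO and from 16374082 to 30310479 for I/R+Rk2. All 10 hepatocyte markers examined were expressed, with a summed level of 4739 to 5231 FPKM in I/R+DMSO and 5089 to 5228 FPKM in I/R+Rk2. Of the markers of other cell types, PTPRC of immune cells, DCN of fibroblasts and VWF, CDH5 and KDR of endothelial cells were listed at 0 in every library. Other markers of these cell types were detected. PECAM1 of endothelial cells had 149 to 313 counts per library, with means of 1.46 FPKM in I/R+DMSO and 1.59 FPKM in I/R+Rk2. Of fibroblasts, PDGFRB had 27 to 66 counts, LUM 18 to 52, COL3A1 3 to 31 and COL1A1 0 to 17. The 5 fibroblast markers summed to at most 1.65 FPKM in I/R+DMSO and 2.08 FPKM in I/R+Rk2. The 5 immune markers summed to 360 to 401 FPKM in I/R+DMSO and 353 to 405 FPKM in I/R+Rk2, nearly all of it from LYZ and CD68. The immune marker CD14, with 5 to 24 counts per library, was lower in I/R+Rk2 (log2 fold change -1.25, SE 0.353, edgeR adjusted p = 0.0430), and its part in the results below was not tested.

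INHBE, encoding the activin beta E subunit, was nearly 4 times as abundant after Rk2, whereas INHBB, encoding beta B, was lower on average with groups that overlapped. The antagonists FST and FSTL3 were modestly lower, and none of the 4 receptor transcripts was called. Of the 10 genes, 8 had at least 10 counts in at least 4 libraries and were tested with all other such genes. Of these 8, INHBE was called higher, which means an adjusted p below 0.05 in edgeR, and FST and FSTL3 were called lower. Over all 12910 genes tested, 11.0% were called higher and 7.24% lower, 18.2% in all. In counts scaled to library size (CPM), 4 of the 8 had groups without overlap, namely INHBE, FST, FSTL3 and ACVR1B, as did 28.3% of all genes tested. The median log2 fold change of the 8 was -0.17, beside -0.0021 over all genes tested. Since this contrast chose the genes, nothing is read from these shares.

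The upstream sequences of INHBB, FSTL3 and ACVR1 are shown because these genes stand for the subunit set against INHBE, for an antagonist that was lower and for a receptor whose level was nearly the same in both groups. RefSeq promoter windows of GRCh38.p14, running from 250 bases before to 50 bases after a transcription start, were at hand for 9 of the 10 genes (12 windows), all except INHBE. The stretch of INHBB is chr2:120345886-120346135 on the plus strand, that of FSTL3 is chr19:676142-676364 on the plus strand, ended where the GENCODE v29 gene begins, and that of ACVR1 is chr2:157876331-157876580 on the minus strand, upstream of the first of its RefSeq starts. Capitals mark the GC box, GGGCGG or CCGCCC on the opposite strand, and the SMAD binding element CAGACA.
INHBB: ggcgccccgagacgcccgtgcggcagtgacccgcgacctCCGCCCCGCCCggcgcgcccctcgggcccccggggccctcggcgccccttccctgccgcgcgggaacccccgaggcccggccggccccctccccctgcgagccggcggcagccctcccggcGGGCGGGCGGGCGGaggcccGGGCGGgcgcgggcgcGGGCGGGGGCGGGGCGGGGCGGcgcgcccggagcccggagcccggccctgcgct
FSTL3: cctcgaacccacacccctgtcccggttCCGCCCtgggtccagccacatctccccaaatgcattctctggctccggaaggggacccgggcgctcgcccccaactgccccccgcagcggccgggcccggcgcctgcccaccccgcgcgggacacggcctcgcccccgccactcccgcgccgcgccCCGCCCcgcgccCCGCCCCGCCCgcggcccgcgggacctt
ACVR1: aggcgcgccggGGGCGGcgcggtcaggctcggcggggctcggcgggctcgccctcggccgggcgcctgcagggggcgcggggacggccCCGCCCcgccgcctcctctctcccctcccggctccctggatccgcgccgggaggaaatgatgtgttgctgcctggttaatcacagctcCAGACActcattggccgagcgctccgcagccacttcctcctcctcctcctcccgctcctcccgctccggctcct
The INHBB stretch is 89.6% G and C, with 10 GC boxes, some overlapping each other, while that of FSTL3 is 80.3% G and C with 4 and that of ACVR1 75.2% with 2. A GC box, a motif searched for after the sequences had been seen, was in 6 of the 12 windows and in 45% of all 35116 RefSeq windows. CAGACA on either strand was in 4 of the 12, against 16.9% of all windows, and lay 74 bases before the start in ACVR1. None of the 12 held TGATGNAA, the core of the element bound by C/EBP and ATF factors (3.62% of all windows), the cAMP response element TGACGTCA (1.85%) or the ER stress element, CCAAT and CCACG set 9 bases apart (0.0769%). These matches are letters in a window and show no binding.

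The INHBE gene lies at chr12:57452323-57459280 on the plus strand (GENCODE v29 annotation of GRCh38), and its exons overlap those of no other annotated gene. Its raw counts were 420, 462, 451 and 469 in I/R+DMSO replicates 1 to 4 and 2538, 1674, 1583 and 1811 in I/R+Rk2 replicates 1 to 4. Scaled to library size by TMM normalization, INHBE was at 22.3, 21.8, 24.9 and 22.0 CPM in I/R+DMSO and at 83.2, 88.7, 95.8 and 91.6 CPM in I/R+Rk2. The lowest Rk2 library was thus far above the highest DMSO library. The means were 22.7 ± 1.43 and 89.8 ± 5.31 CPM (SD, n = 4 each), which is 3.95-fold, or 1.98 on the log2 scale (SE 0.0657). From the highest log2 fold change downwards, INHBE ranked at position 20 of the 12910 genes tested. In FPKM, which divides by transcript length as well and allows levels of different genes to be compared, it rose from 8.11 ± 0.699 to 32.3 ± 1.99 (SD, n = 4 each).

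**Figure D1:**
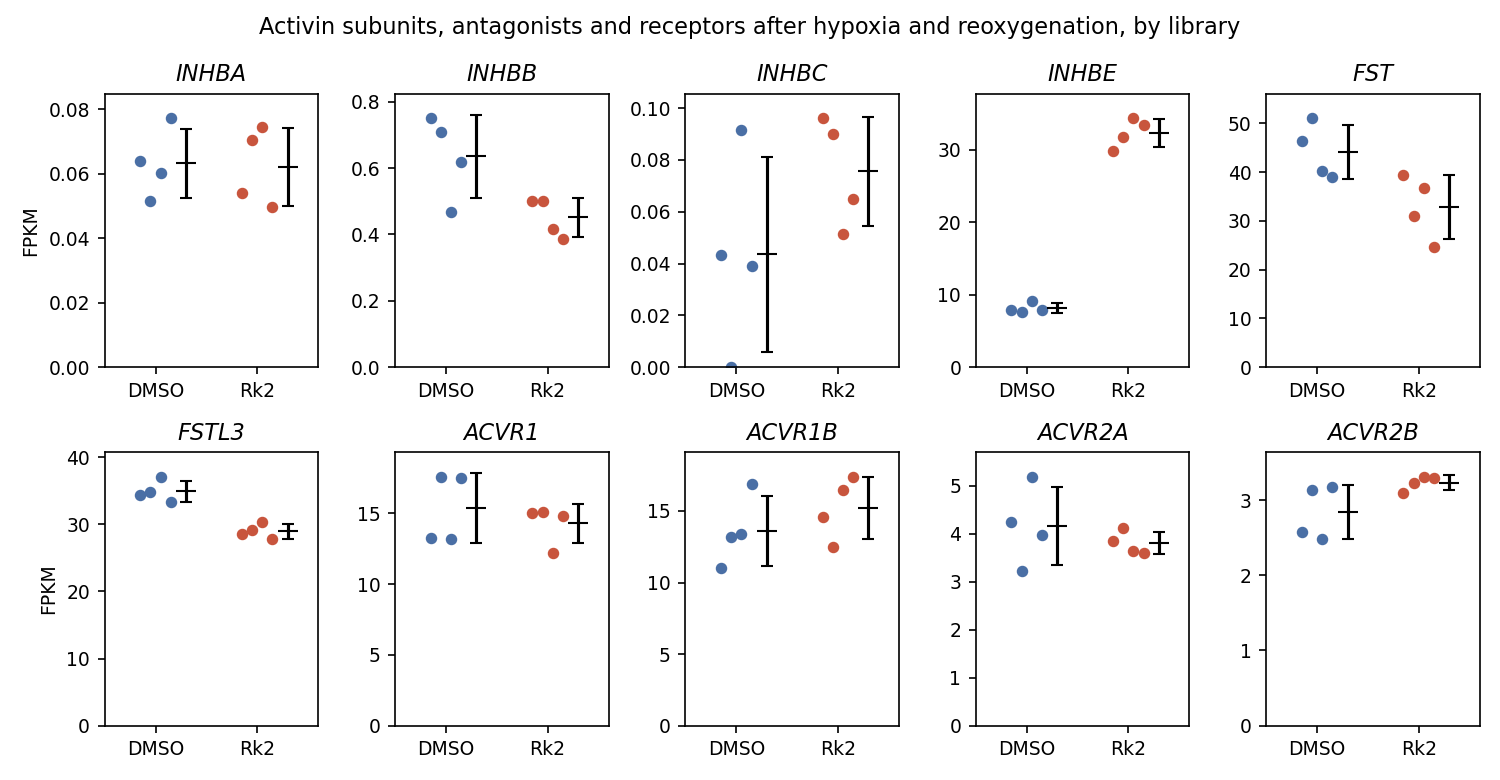
FPKM of the 10 genes in each library, a panel for each gene with its own vertical axis from 0; points are libraries of I/R+DMSO (blue) and I/R+Rk2 (red), and black marks show the mean ± SD (n = 4). The groups are apart for INHBE, at 7.56 to 9.14 against 29.8 to 34.3 FPKM, and for FSTL3, at 33.4 to 37.1 against 27.8 to 30.4 FPKM, and they overlap for the other 8 genes.

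INHBB (chr2:120346143-120351808, plus strand), the other subunit with enough reads to test, was a low transcript. Its counts were 56, 58, 33 and 51 in I/R+DMSO and 59, 36, 26 and 29 in I/R+Rk2. In CPM these were 2.97, 2.73, 1.82 and 2.39 against 1.93, 1.91, 1.57 and 1.47. The I/R+DMSO replicate 3 lay within the range of the Rk2 libraries, while the other 3 DMSO libraries lay above all of them. The log2 fold change was -0.52 (SE 0.187), from 2.48 ± 0.501 to 1.72 ± 0.235 CPM (SD, n = 4 each), and INHBB was not called. Without I/R+DMSO replicate 3 its log2 fold change was -0.64 and it was called lower. It was not called with any other library left out, nor under any of the 10 alternative settings that tested it. Over those settings its log2 fold change ranged from -0.60 to -0.17, the weakest value being from log2(FPKM + 1).

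Set against each other within each library, INHBE and INHBB diverged. The log2 difference between them in CPM, which is not adjusted for length, lay from 2.89 to 3.74 in the DMSO libraries and from 5.39 to 5.92 in the Rk2 libraries, and the group means of 3.19 and 5.67 differed by 2.48 (SE 0.233). Per length, INHBE exceeded INHBB by 10.5, 10.7, 19.6 and 12.8 times in FPKM in I/R+DMSO replicates 1 to 4 and by 59.5, 63.2, 82.5 and 86.2 times in I/R+Rk2. The high value of I/R+DMSO replicate 3 goes with its INHBB level of 0.466 FPKM, the lowest of the group, and an INHBE level of 9.14 FPKM, the highest of the group. INHBE therefore made up most of the beta subunit transcripts in both groups. Its share of the summed FPKM of the 4 beta subunits lay from 90.2% to 93.7% in the DMSO libraries and from 97.9% to 98.5% in the Rk2 libraries, and that of INHBB was 4.78% to 8.57% and 1.14% to 1.65%.

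INHBA, encoding the beta A subunit of activin A, and INHBC, encoding beta C, were at the edge of detection and were not tested. INHBA had 9, 8, 8 and 13 counts in I/R+DMSO and 12, 10, 9 and 8 in I/R+Rk2. INHBC had 3, 0, 5 and 3 counts in I/R+DMSO and 7, 5, 3 and 3 in I/R+Rk2. The groups overlapped in both genes, and no statement about a difference is made from so few counts. Their mean levels were 0.0632 and 0.0622 FPKM for INHBA and 0.0436 and 0.0756 FPKM for INHBC, in I/R+DMSO and I/R+Rk2. INHBC (chr12:57434760-57450828) ends 1495 bases before INHBE on the same strand, and 3 to 7 counts of INHBC stood beside 1583 to 2538 counts of INHBE in the Rk2 libraries.

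FST (chr5:53480409-53487134, plus strand), the antagonist that binds activins almost irreversibly, had the highest mean FPKM of the 10 genes in both groups. Its CPM was 100.9, 97.1, 88.6 and 85.2 in I/R+DMSO and 73.8, 64.9, 71.3 and 61.5 in I/R+Rk2, with every Rk2 library below every DMSO library. The means were 93.0 ± 7.30 and 67.9 ± 5.69 CPM (SD, n = 4 each), and the log2 fold change was -0.45 (SE 0.0781). In FPKM the groups overlapped, at 46.4, 51.0, 40.3 and 39.0 against 39.4, 30.9, 36.7 and 24.6, because I/R+Rk2 replicate 1 reached above I/R+DMSO replicate 4. With limma on log2(FPKM + 0.1), FST had a log2 fold change of -0.44 (SE 0.154) and was not called.

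FSTL3 (chr19:676365-683399, plus strand), a related antagonist of activins and myostatin, was at 102.7, 103.3, 104.3 and 95.4 CPM in I/R+DMSO and at 82.2, 82.6, 82.9 and 76.3 CPM in I/R+Rk2. Replicate 4 was the lowest in both groups, and the groups were apart. The fall was from 101.4 ± 4.04 to 81.0 ± 3.17 CPM (SD, n = 4 each), with -0.32 (SE 0.0471) as its log2 fold change, and FSTL3 was also called lower in FPKM (log2 fold change -0.27, SE 0.0571). The ratio of FST to FSTL3 in FPKM was 1.27 ± 0.172 in I/R+DMSO and 1.13 ± 0.212 in I/R+Rk2 (SD, n = 4 each), with a value below 1 in I/R+Rk2 replicate 4 (0.885), and these ratios differed by less than the spread.

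The level of antagonist transcripts relative to subunit transcripts was lower in I/R+Rk2, mostly through INHBE. INHBE made up most of the subunit sum, and the genes were selected on this same contrast. The FPKM of FST and FSTL3 summed to 72.4 to 85.8 in the DMSO libraries and 52.4 to 67.9 in the Rk2 libraries. That of the 4 beta subunits summed to 8.32 to 9.75 and to 30.4 to 34.9. The ratio of the antagonist sum to the subunit sum was 9.23, 10.3, 7.94 and 8.41 in I/R+DMSO and 2.23, 1.85, 1.93 and 1.55 in I/R+Rk2. The groups of this ratio did not overlap, with every Rk2 library below every DMSO library. That largely restates the rise of INHBE. It is a ratio of transcripts. Protein levels, and binding of FST or FSTL3 to dimers with beta E, were not measured here.

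**Figure D2:**
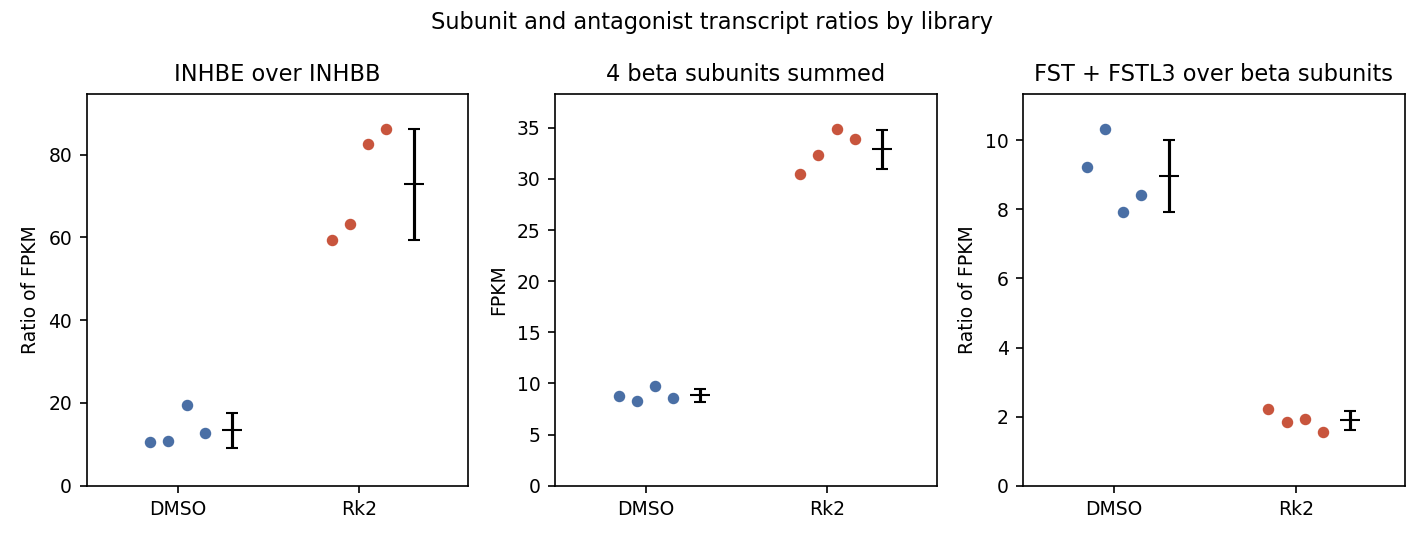
Ratio of INHBE to INHBB FPKM (left), summed FPKM of the 4 beta subunits (middle) and the ratio of summed FST and FSTL3 FPKM to that sum (right), by library, with I/R+DMSO in blue, I/R+Rk2 in red and the mean ± SD (n = 4) in black. INHBE over INHBB was 13.4 ± 4.26 in I/R+DMSO and 72.8 ± 13.4 in I/R+Rk2, and the antagonist ratio was 8.97 ± 1.05 and 1.89 ± 0.280.

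Among the type I receptors, ACVR1 (chr2:157736444-157875862, minus strand), which also serves bone morphogenetic proteins (BMPs), was at 40.2, 38.9, 41.7 and 39.6 CPM in I/R+DMSO and at 34.7, 42.2, 37.5 and 45.0 CPM in I/R+Rk2. The Rk2 libraries lay on both sides of the DMSO libraries, and the log2 fold change was -0.01 (SE 0.0840). ACVR1B (chr12:51951667-51997078, plus strand), the type I receptor of activin A and B also known as ALK4, was at 58.0, 61.4, 66.3 and 69.0 CPM in I/R+DMSO. In I/R+Rk2 it was at 57.5, 25.4, 57.1 and 55.9 CPM, so that replicate 2 stood far below the other 3, and these lay just under the lowest DMSO library. The log2 fold change of ACVR1B was -0.38 (SE 0.241) with all libraries and -0.16 (SE 0.0706) without I/R+Rk2 replicate 2, and it was called in neither case.

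The deposited FPKM of ACVR1B gave another picture, with 11.0, 13.2, 13.4 and 16.9 in I/R+DMSO and 14.6, 12.5, 16.5 and 17.4 in I/R+Rk2. The groups overlapped, the mean was higher in I/R+Rk2 (15.2 ± 2.18 against 13.6 ± 2.43, SD, n = 4 each) and replicate 2 was the lowest of its group by a small margin. Since FPKM is a count divided by depth and length, a count and an FPKM together imply a length. For ACVR1B this length was 2059 bases in I/R+Rk2 replicate 2 and 3265 to 5153 bases in the other 7 libraries, whereas for INHBE it stayed within 2682 to 2868 bases and for INHBB within 3821 to 3890 bases in all 8. Of the 8 genes tested, the highest implied length exceeded the lowest by 2.50 times for ACVR1B, 1.57 times for ACVR2A, 1.42 times for ACVR1, 1.34 times for FST and at most 1.07 times for the other 4. For the first 4 genes counts and FPKM can therefore order libraries differently, and why the tables differ was not tested.

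Of the type II receptors, ACVR2A (chr2:147844517-147930826, plus strand) was at 21.4, 19.5, 21.3 and 22.3 CPM in I/R+DMSO and at 22.5, 25.1, 23.0 and 20.6 CPM in I/R+Rk2. The groups overlapped (log2 fold change 0.11, SE 0.0747). Exons of ACVR2A overlap those of ORC4 and AC009480.1 on the opposite strand, so its reads are certain only if the counting used strand, which is not given in the sources used here. ACVR2B (chr3:38453851-38493142, plus strand) was at 37.6, 44.6, 33.8 and 45.1 CPM in I/R+DMSO and at 43.7, 45.1, 46.1 and 45.9 CPM in I/R+Rk2. The DMSO replicates 1 and 3 were below the rest, and the groups overlapped at the top (log2 fold change 0.17, SE 0.0943). The length of a gene was taken as the median over libraries of the length implied by counts and FPKM. By this length, longer genes had higher log2 fold changes among all genes tested (Spearman rho 0.388 across genes, which are not independent). After a correction for that trend the log2 fold changes were -0.043 (SE 0.0849) for ACVR2A and -0.14 (SE 0.0815) for ACVR2B, so the sign of both depended on it, and that of ACVR2A was also negative in FPKM (-0.11, SE 0.142).

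Summed by class in FPKM, the receptors were nearly level between the groups. The type I receptors ACVR1 and ACVR1B summed to 29.01 ± 4.49 FPKM in I/R+DMSO and 29.5 ± 1.98 FPKM in I/R+Rk2 (SD, n = 4 each). The type II receptors ACVR2A and ACVR2B summed to 6.99 ± 0.550 and 7.03 ± 0.207 FPKM (SD, n = 4 each). Both differences were smaller than the spread between replicates. Type I transcripts exceeded type II transcripts by 4.17 ± 0.763 times in I/R+DMSO and 4.20 ± 0.377 times in I/R+Rk2 (SD, n = 4 each). In CPM the means in I/R+DMSO and I/R+Rk2 were 40.1 and 39.9 for ACVR1 and 63.7 and 49.0 for ACVR1B. They were 21.1 and 22.8 for ACVR2A and 40.3 and 45.2 for ACVR2B, so the levelness rests on FPKM.

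**Figure D3:**
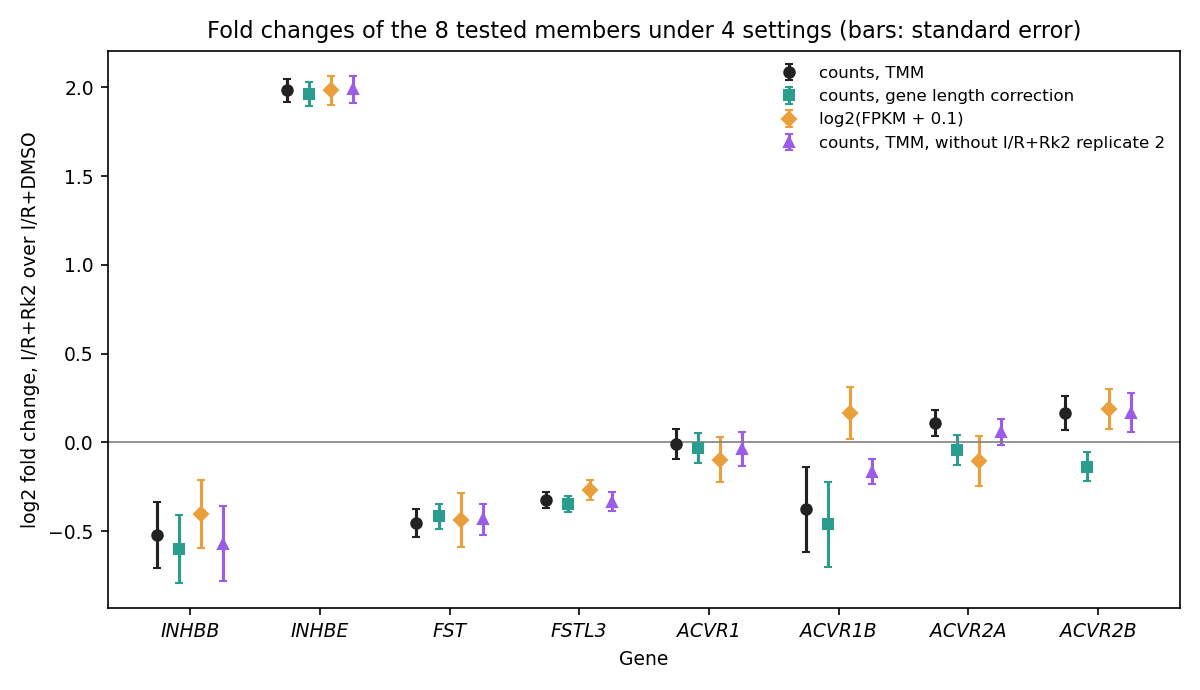
Log2 fold change of I/R+Rk2 over I/R+DMSO for the 8 genes tested, with the standard error as bars, from TMM-normalized counts (black circles), counts corrected for gene length (green squares), log2(FPKM + 0.1) in limma (orange diamonds) and counts without I/R+Rk2 replicate 2 (purple triangles). INHBE stays between 1.96 and 1.99, whereas ACVR1B is -0.38 from counts and 0.17 from FPKM, and ACVR2A and ACVR2B change sign between settings.

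The order of the levels in FPKM shows where INHBE moved. In I/R+DMSO the order of the means was FST (44.2), FSTL3 (34.9), ACVR1 (15.4), ACVR1B (13.6), INHBE (8.11), ACVR2A (4.15), ACVR2B (2.84), INHBB (0.635), INHBA (0.0632) and INHBC (0.0436 FPKM). Among neighbours in that order the libraries overlapped for ACVR1 with ACVR1B and for INHBA with INHBC, and for no other pair. In I/R+Rk2 INHBE stood in second place at 32.3 FPKM, between FST at 32.9 and FSTL3 at 28.96, and its libraries overlapped those of both. Below these 3 came ACVR1B (15.2) and ACVR1 (14.3), which overlapped, then ACVR2A (3.803), ACVR2B (3.23), INHBB (0.452), INHBC (0.0756) and INHBA (0.0622 FPKM), with overlap between the last 2. INHBE thus passed from below the type I receptors to the level of the antagonists.

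Other genes of the pathway were taken from 7 hand-compiled lists of 65 genes in all, 53 of which were tested. The lists were chosen with earlier results of these data known, so the shares called are a description. Of the 53, 3 were called higher (5.66%), 10 were called lower (18.9%) and 40 were not called, with a median log2 fold change of -0.08, beside the 11.0% higher and 7.24% lower over all genes tested. In limma on log2(FPKM + 0.1), 3 were called higher and 4 lower. That fit called fewer genes in general, 1106 over all genes it tested against 2352 in edgeR. The 3 called higher in edgeR, SMAD2, TGIF1 and CDKN2B, all had log2 fold changes between 0.15 and 0.19. TGFB1, SMAD6, CTGF and ID1 were called lower under every alternative setting and with each library left out, and the other 9 of the 13 lost their call under at least 1 of these.

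Among other ligands, 3 of 9 were called lower and none higher. These were TGFB1 (78.4 ± 2.34 to 64.3 ± 2.15 CPM, SD, n = 4 each, log2 fold change -0.29, edgeR adjusted p = 0.00458), TGFB2 (log2 fold change -0.18, edgeR adjusted p = 0.0246) and the iron-regulating BMP6 (log2 fold change -0.35, edgeR adjusted p = 0.0296). BMP2, the most abundant of the list, had a log2 fold change of 0.05 (edgeR adjusted p = 0.355), which turned to -0.045 under the length correction. INHA, the inhibin alpha subunit, is outside the naming rule and had 5 to 16 counts per library, with overlapping groups. Of 9 other receptors and co-receptors, ACVRL1, a type I receptor known from endothelial cells, was called lower (1.82 ± 0.381 to 0.938 ± 0.225 CPM, SD, n = 4 each, 12 to 48 counts, edgeR adjusted p = 0.0305), and the most abundant, TGFBR2, was not (log2 fold change -0.11, edgeR adjusted p = 0.252). TGFBR2 was called lower under the length correction (-0.25, edgeR adjusted p = 0.00438) and without I/R+DMSO replicate 1 (-0.17, edgeR adjusted p = 0.0287).

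Among 8 SMAD proteins, SMAD2, the transcription factor that activin receptors phosphorylate, was called higher (log2 fold change 0.18, edgeR adjusted p = 0.0246), and its log2 fold change ranged from 0.021 to 1.20 over the other settings, the upper value being from FPKM. SMAD3, its partner of like function, was not called (log2 fold change -0.08, edgeR adjusted p = 0.262), but was called lower under the length correction (-0.26, edgeR adjusted p = 0.00939). SMAD6, an inhibitor of BMP signalling, was called lower (50.7 ± 5.91 to 35.4 ± 1.56 CPM, SD, n = 4 each, log2 fold change -0.52, edgeR adjusted p = 0.00675). Of 11 cofactors and negative regulators, the co-repressor TGIF1 was called higher (log2 fold change 0.15, edgeR adjusted p = 0.0321), and the decoy receptor BAMBI and the follistatin relative FSTL1 were called lower (log2 fold changes -0.18 and -0.36, edgeR adjusted p = 0.0162 and 0.00741). Exons of TGFB1, SMAD3, FSTL1 and CTGF overlap those of other genes on the opposite strand. On the same strand, exons of TGFB2 overlap TGFB2-OT1 and those of FSTL1 overlap MIR198.

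Of 7 target genes of activin or TGF-beta, CTGF (519.6 ± 24.3 to 354.2 ± 16.8 CPM, SD, n = 4 each, log2 fold change -0.55, edgeR adjusted p = 0.000558) and TGFBI (log2 fold change -0.16, edgeR adjusted p = 0.0171), both of the extracellular matrix, were called lower. The cell cycle inhibitor CDKN2B was called higher (log2 fold change 0.19, edgeR adjusted p = 0.0191). Of 5 BMP target genes, ID1 was called lower (600.2 ± 38.1 to 441.3 ± 10.7 CPM, SD, n = 4 each, log2 fold change -0.44, edgeR adjusted p = 0.00133). None of the 4 proprotein convertases, which cleave activin precursors, was called, FURIN having a log2 fold change of -0.10 (edgeR adjusted p = 0.204). FURIN was called lower under the length correction (-0.17, edgeR adjusted p = 0.0182) and without I/R+DMSO replicate 1 (-0.14, edgeR adjusted p = 0.0368).

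**Figure D4:**
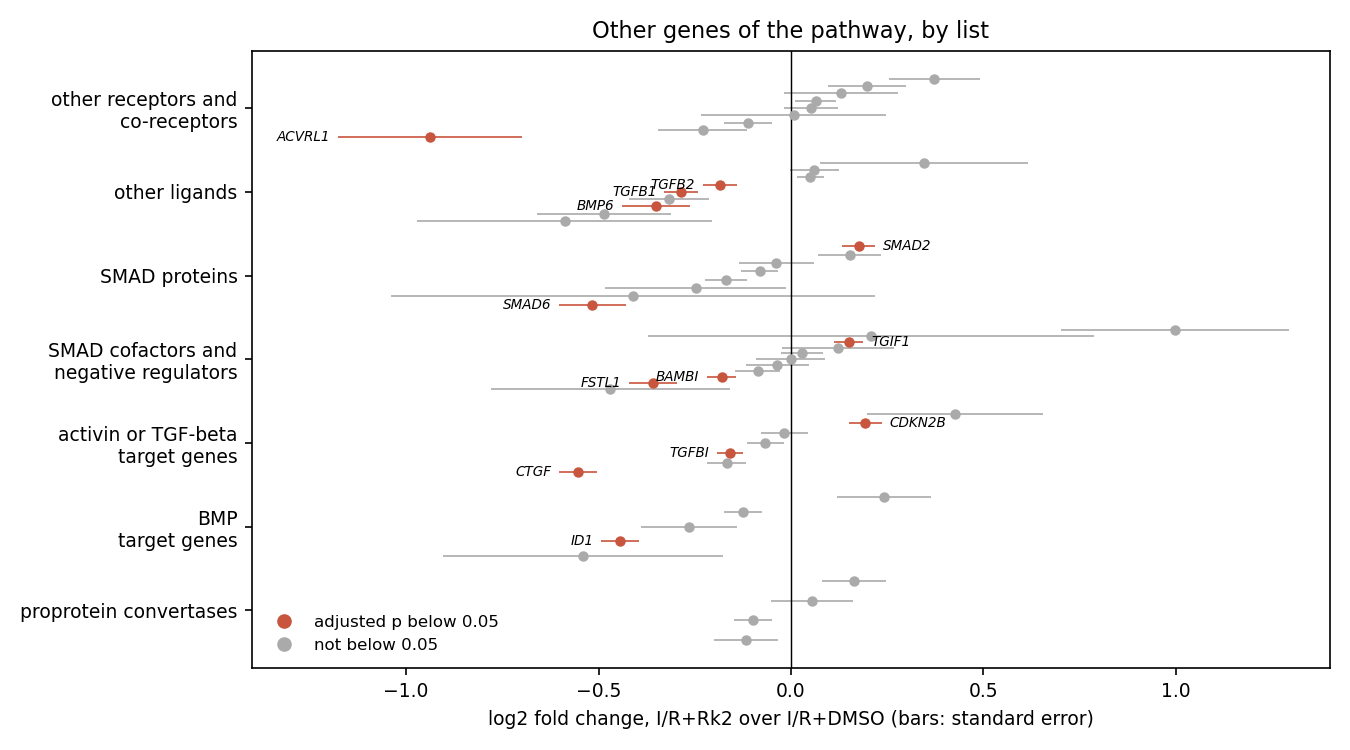
Log2 fold change of I/R+Rk2 over I/R+DMSO for the 53 other pathway genes tested, by list, with the standard error as bars; genes with an edgeR adjusted p below 0.05 are red and named. The 10 called lower lie between -0.94 (ACVRL1) and -0.16 (TGFBI) and the 3 called higher between 0.15 (TGIF1) and 0.19 (CDKN2B).

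The genes whose pattern over the 8 libraries was most like that of INHBE were found by the root mean square difference between profiles of log2 CPM, each centred on its DMSO mean, among 10461 genes. They were CHAC1, a glutathione-degrading enzyme (difference 0.189), the secreted hormones STC2 (0.337) and ADM2 (0.349), the ER co-chaperone DNAJB9 (0.428) and INSIG1, an ER protein that holds back sterol synthesis (0.451). Their log2 fold changes were 1.75, 1.51, 1.49, 1.38 and 1.43, all below that of INHBE. For INHBB the closest were MRPS2 (0.104), RPP21 (0.119), BBOX1 (0.147), UQCC3 (0.150) and MT1F (0.150). Their log2 fold changes were -0.51, -0.50, -0.59, -0.48 and -0.44, and MRPS2 was not called. Exons of DNAJB9, MRPS2 and UQCC3 overlap those of other genes on the opposite strand, and those of RPP21 overlap a gene on the same strand. No gene was on both lists, which the gap between the log2 fold changes of INHBE and INHBB had fixed beforehand. Likeness of a profile in 2 groups rests largely on the size of the difference between them.

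Within 100 kb of INHBE the annotation places 14 other genes, and 7 of them were tested. Of these, 4 were called higher and none lower, beside 11.0% higher and 7.24% lower over all genes tested, and 7 genes are too few to read this as particular to the locus. GLI1, which begins 855 bases after the end of INHBE on the same strand, rose from 0.581 ± 0.218 to 1.41 ± 0.229 CPM (SD, n = 4 each) on 6 to 41 counts per library (log2 fold change 1.28, edgeR adjusted p = 0.0223). DDIT3, the stress transcription factor CHOP, lies 57.3 kb away and rose from 12.3 ± 4.47 to 25.6 ± 4.68 CPM (SD, n = 4 each, log2 fold change 1.05, edgeR adjusted p = 0.0297). MARS, the methionyl-tRNA synthetase, and MBD6 had log2 fold changes of 0.15 and 0.39 (edgeR adjusted p = 0.0306 and 0.0364). Exons of DDIT3 overlap those of MARS and MBD6 on the opposite strand, and those of GLI1 overlap ARHGAP9, so reads of these genes may be shared. R3HDM2, DCTN2 and KIF5A were not called.

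**Figure D5:**
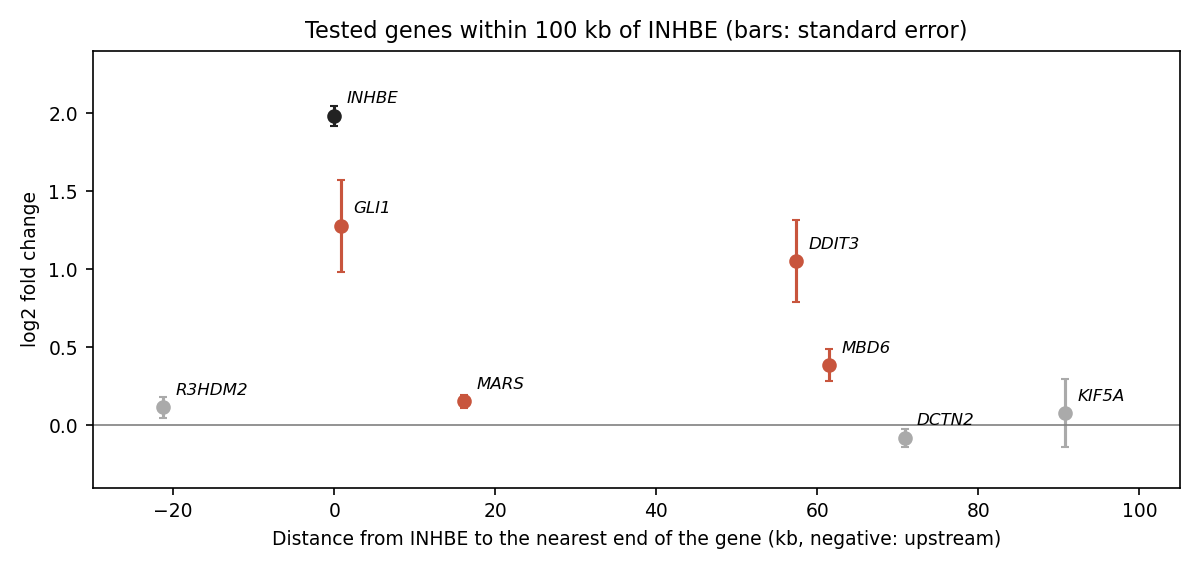
Log2 fold change of I/R+Rk2 over I/R+DMSO, with the standard error as bars, for INHBE (black) and the 7 tested genes within 100 kb of it, against the distance in kb from INHBE to the nearest end of each gene; red marks an edgeR adjusted p below 0.05 and grey no call. INHBE is highest at 1.98, GLI1 and DDIT3 follow at 1.28 and 1.05, and the other 5 lie between -0.08 and 0.39.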

How the data were processed

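Libraries were made by the authors (MGIEasy kit, BGISEQ-500 sequencer). The authors deposited raw counts per gene, not normalized, and FPKM per gene, normalized for length and depth. The submitters' processing notes name hg38, FastQC 0.11.5, HISAT2 2.2.1 and StringTie 1.3.3, and the paper's methods also name DESeq2. The counting tool, its annotation and its use of strand are not given in the sources used here. In the counts, 22 rows whose symbols had become dates (0.111% of counts) were left out, as were 27 such rows and 35 rows of repeated symbols in the FPKM table, none of them of the 10 genes.

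Groups came from the labels. Counts were tested with edgeR 4.0.16 (robust quasi-likelihood, TMM, R 4.3.3) on 12910 genes that reached 10 counts in 4 or more libraries, adjusted by Benjamini-Hochberg, at a threshold of 0.05. CPM values are TMM-normalized. The SE of an edgeR log2 fold change was that change without its sign, divided by the square root of the F statistic. Alternatives were DESeq2 1.42.0, upper-quartile or library-size scaling, a filter of 50 counts in all libraries or none, limma 3.58.1 on log-transformed FPKM (pseudocount 1 or 0.1, mean FPKM 0.5 or above, and pseudocount 1 unfiltered), a replicate block, a loess correction for gene length (span 0.5), both together, and each library left out in turn. Gene length was not taken from an annotation but was the median over libraries of the length implied by counts and FPKM. The fits were tested on simulated data. Positions and exon overlaps are from GENCODE v29, and promoter sequences from RefSeq.

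The 10 genes and the lists were chosen with earlier results of these data known. Named besides the 10 were each list's genes with an adjusted p below 0.05 (at most 5) and its most abundant tested gene, the 5 genes most like INHBE and INHBB among tested genes with a mean of at least 5 CPM, and the genes within 100 kb of INHBE. Marker genes, INHA and ARHGAP9 were named outside this rule. A gene that the rule includes is not reported here. The markers examined were ALB, AFP, APOA1, APOB, TTR, SERPINA1, TF, FGB, HNF4A and GPC3 for hepatocytes (APOB called higher and FGB lower), PTPRC, CD14, CD68, LYZ and CD3E for immune cells, COL1A1, COL3A1, DCN, LUM and PDGFRB for fibroblasts and PECAM1, VWF, CDH5 and KDR for endothelial cells (neither of the last 2 lists with a call).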

Additional observations from a re-analysis of the deposited data

Results flagged for a closer look

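Of 98 groups of 4 libraries examined, 4 held a library far from the other 3 by Dixon's criterion, which divides the gap to the nearest library by the range, and chance gives about 1 in 20 such groups. ACVR1B in I/R+Rk2 had replicate 2 at 25.4 CPM against 55.9 to 57.5 CPM in the others, a ratio of 0.951, and its log2 fold change moved from -0.38 to -0.16 without that library. FSTL3 in I/R+Rk2 had replicate 4 at 76.3 CPM against 82.2 to 82.9 CPM, a ratio of 0.901, and all 4 stayed below the I/R+DMSO libraries. ACVR1 in I/R+Rk2 had replicate 3 at 12.2 FPKM against 14.8 to 15.1 FPKM, a ratio of 0.909. The summed FPKM of ACVR2A and ACVR2B in I/R+Rk2 was 7.34 in replicate 2 against 6.91 to 6.95 in the others, a ratio of 0.890.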

How the results depend on the processing

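INHBE was the gene of the 10 called higher under all 11 alternatives and with each library left out, its log2 fold change ranging from 1.87 to 2.01 over the alternatives and from 1.95 to 2.03 without a library. FSTL3 was likewise called lower under all of them, with a log2 fold change of -0.35 to -0.26 over the alternatives. The 10 genes were selected on this same contrast, so these repeated calls describe the processing and are no independent support. The count called lower was 1 in the 3 limma fits on FPKM, which lost FST, and 2 to 3 with a library left out. Of the other pathway genes, 5 were called higher in DESeq2 and 0 to 4 with a library left out, falling to 0 when DMSO library 2 or Rk2 library 1 was left out and to 1 without Rk2 library 2, 3 or 4. The number called lower was 4 in limma on FPKM with either pseudocount, 5 without the FPKM filter, 15 with the length correction and 7 to 12 with a library left out. BMP2 turned to -0.045 with the length correction and to -0.044 with the block added. The cause of these changes was not tested. Over all genes tested, 970 to 3008 were called under the alternatives and 1293 to 2287 with a library left out, against 2352. The difference between the log2 fold changes of INHBE and INHBB stayed within 2.39 to 2.55 over the alternatives and 2.38 to 2.66 with a library left out, and the INHBE share of subunit FPKM within 90.8% to 92.0% and 98.1% to 98.3%. Libraries with the same replicate number did not deviate together over all genes tested, with correlations of -0.01 to 0.08. Of the 8 libraries, 2 correlated best with that of their own number. These values cannot settle whether the numbers pair the libraries, since a shared culture may affect only some genes. A replicate block left 1 other pathway gene called higher and 8 lower (1 and 11 with the length correction), and called the same 3 of the 10 genes. It gave the INHBE and INHBB difference, a comparison chosen after seeing the data, as 2.48 (SE 0.124, against 0.233 without the block). Depth limits INHBA and INHBC, and INHBB had the fewest counts of the 8 genes tested.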
